A study of Homo sapiens with 12 samples.

Results

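The SW1990 line was examined for the genes that separated its GCTM-5 positive from its GCTM-5 negative cells. SW1990 is an established human pancreatic adenocarcinoma line in which only some of the cells carry the GCTM-5 antigen on their surface. Cells were stained with the mouse monoclonal antibody GCTM-5 and sorted by flow cytometry, and the gates kept the strongly positive and the negative cells only, so cells of intermediate staining are in neither group. The groups therefore share their line, medium and staining, received no treatment or genetic change, and differ in the antigen used for the sort. Both groups came from triplicate sorts, and whether these were made from separate cultures is not stated, so the p-values measure the spread between sorted samples, which may be technical. The 6 SW1990 samples, 3 negative and 3 positive, are all those of this line among the 12 samples of the study, and the other 6 came from the CFPAC-1 line. Polyadenylated RNA was sequenced, and the deposited values are RPKM, the reads of a gene scaled by its length and by the size of the library, so that levels can be compared between genes. Genes with a mean of at least 0.1 RPKM over the 6 samples were kept, which were 15844 of the 23346 genes in the table.

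GCTM-5 binds a large secreted glycoprotein complex that also carries the carbohydrate antigen CA 19-9, and it marks duct-like cells of the pancreas and biliary tree. Epithelial cells of ducts are held together by cadherins, tight junctions and desmosomes, carry keratin filaments and have an apical surface rich in mucins, whereas mesenchymal cells rely on vimentin and on a matrix that they secrete. Carcinoma cells can move between these states, and the repressors of the ZEB and SNAI families and the microRNAs of the miR-200 family and miR-205 are the best known switches, since each side lowers the expression of the other.

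Of the 15844 genes tested, 624 (3.94%) were called higher in positive cells and 919 (5.8%) were called lower. Counts of list members below are to be read against these shares, and in a short list a count of 0 is close to them. A gene was called when its fold change, the difference of the group means of log2(RPKM + 0.1), was over 2-fold and the Benjamini-Hochberg adjusted p-value from limma over all genes tested was under 0.01, and only such genes are said here to have risen or fallen. This scale understates the change of genes near 0. The lowest positive sample exceeded the highest negative one for 2897 genes (18.3%), and the reverse held for 4131 genes (26.1%), so that a lack of overlap between the groups is in itself common in this line. Over all genes tested, log2 fold changes had a median of -0.04. Library totals, worked out from the RPKM, lay between 16973802 and 23277139 reads, and the reads recovered for genes made up 99.93% of each. The first principal component separated the sorted populations and took 65.2% of the variance, and samples of a group correlated with a Pearson r of 0.974 to 0.980 across genes, which are not independent replicates. No pair of samples agreed within sampling noise, with chi-square values per degree of freedom of 9.04 to 31.6. Medians of the log2 fold change by chromosome, over 8254 genes with a mean of at least 5 RPKM on 23 chromosomes, lay between -0.09 and 0.09.

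**Figure D1:**
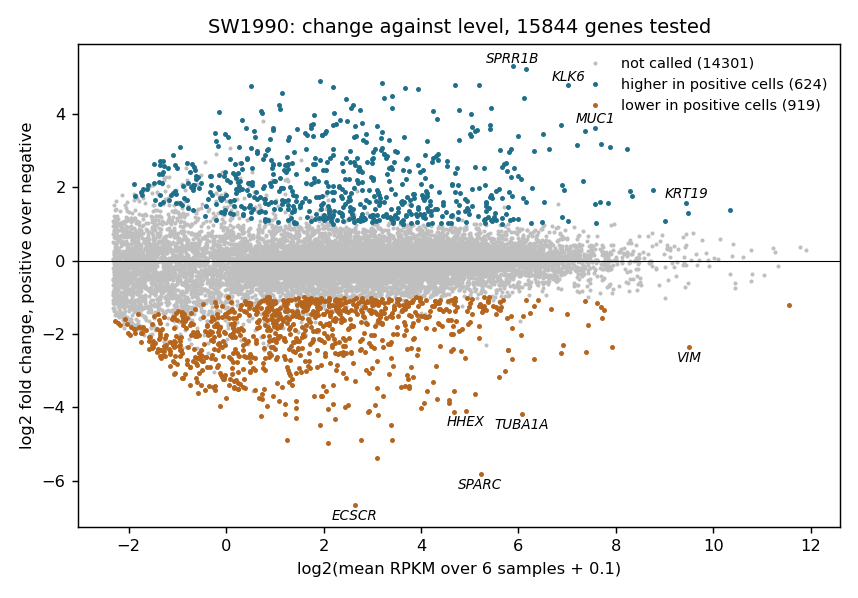
Each point is 1 of the 15844 genes tested in SW1990, placed by its mean level over the 6 samples on the x axis, as log2(RPKM + 0.1), and by its log2 fold change, positive over negative cells, on the y axis. The 624 genes called higher are blue and the 919 called lower are brown, and the falls of *SPARC* and *ECSCR* exceed any rise.

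Markers of the duct epithelium were checked first, because both populations carry the same label. Both populations expressed the duct keratin *KRT7*, at 314, 305 and 238 RPKM in the negative and 279.8, 346 and 319 RPKM in the positive samples, and the duct transcription factor gene *SOX9*, at 42.8, 42.0 and 46.8 RPKM in the negative and 53.1, 43.8 and 47.2 RPKM in the positive samples. Neither separated the groups (log2 fold changes 0.15 and 0.13, adjusted p = 0.468 and 0.366), and the samples of both groups overlapped. The other 8 of the 10 duct and carcinoma markers rose in positive cells, and all were present in negative cells at lower levels. *EPCAM*, which encodes an epithelial adhesion molecule, was at 19.7, 18.0 and 27.2 RPKM in the negative and 162, 175 and 191 RPKM in the positive samples. The groups lay far apart, with 8.13-fold more in positive cells as a ratio of means (log2 fold change 3.04, standard error 0.15, adjusted p = 3.11e-05). Summed over the 10 markers, the level was 1744 to 2049 RPKM in negative and 5003 to 5319 RPKM in positive samples. *KRT20*, *CDKN2A*, *CDKN2B* and *GSTT1*, chosen after their values were seen, had 0 reads in each of the 6 samples, which allows up to 3 reads in a library. Such limits cover counting error only, since copies made by PCR are not separate molecules.

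Markers of other cell types were lower in positive cells where they changed, and many did not pass the filter on low values. Of 10 fibroblast markers 3 passed the filter, and *PDGFRB* and *LUM* fell (log2 fold changes -3.75 and -2.32). The summed level of the fibroblast markers was 12.9 to 22.9 RPKM in negative and 3.90 to 4.88 RPKM in positive samples. Of 8 endothelial markers 5 passed, *CDH5* and *TIE1* fell, the summed level was 15.5 to 19.6 RPKM against 1.55 to 2.34 RPKM, and *KDR* and *EMCN* had at most 2 reads in any sample. Of 8 leukocyte markers 5 passed and *CD14* fell (log2 fold change -1.97, standard error 0.31, adjusted p = 0.00267), with a summed level of 61.9 to 82.2 RPKM against 46.6 to 68.1 RPKM. *CD14* was not called without negative replicate 2 or 3 or positive replicate 3 (log2 fold change -1.90 to -1.80, adjusted p = 0.0135 to 0.0142). None of the 2 neural markers that passed the filter was called, and none of the 6 acinar markers passed it. In bulk samples such as these, sorted from the SW1990 line, fewer cells with a transcript and less of it per cell cannot be told apart. The part of rare cells in the differences below was not tested.

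Keratin genes were counted by type. Of the keratins of simple epithelia, 3 of 6 tested rose (3.94% of all genes tested did), and none fell. *KRT19*, a keratin of duct cells and the basis of a serum marker, was at 349, 354 and 353 RPKM in the negative and 1020.1, 1110.3 and 1007 RPKM in the positive samples. Its negative samples were nearly identical and every positive sample was far above them (log2 fold change 1.57, standard error 0.10, adjusted p = 4.66e-05). *KRT8* and *KRT18*, which pair with each other in filaments, rose by similar log2 values of 1.39 and 1.29. Of the keratins of stratified epithelia and hair, 9 of 11 rose and none fell, and the median log2 fold change was 1.97, against -0.04 over all genes. The lowest member of that list, not called, was at -1.41. *KRT17*, a keratin of basal and wounded epithelium, rose from 26.3 ± 2.84 to 65.3 ± 14.9 RPKM (SD, n = 3 each). *KRT13*, a keratin of the upper layers of moist epithelia, was at 0.426, 0.276 and 0.527 RPKM in the negative and 2.25, 2.16 and 5.46 RPKM in the positive samples, with positive replicate 3 the highest. *KRT81*, a hair keratin, rose from 57.7 ± 4.39 to 265 ± 72.3 RPKM, and it overlaps *KRT86* on the other strand, and without strand their reads cannot be told apart. *KRT86* was not called without negative replicate 1, 2 or 3 or positive replicate 2 or 3 (log2 fold change 1.16 to 1.47, adjusted p = 0.0176 to 0.0349).

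Genes of the cornified envelope, the protein layer under the membrane of keratinised cells, included the largest rises. Of the 14 tested, 9 rose and none fell, with a median log2 fold change of 2.95. Of the small proline-rich proteins, *SPRR2A* was at 4.46, 2.92 and 3.51 RPKM in the negative and 116, 179.8 and 123 RPKM in the positive samples, 38.5-fold higher as a ratio of means (log2 fold change 5.22, standard error 0.20, adjusted p = 2.73e-05). *SPRR3* was at 0.296, 0.610 and 0.688 RPKM in the negative and 16.1, 23.9 and 13.3 RPKM in the positive samples. For both genes, each positive sample exceeded the highest negative sample more than 10-fold. The *SPRR* genes lie side by side on chromosome 1 of GRCh37 (152943124 to 153123366), and 7 of the 8 tested there rose. As these paralogs are nearly alike in sequence and the treatment of reads with several matches is unknown, the split of the signal between them is uncertain. *PPL*, which encodes periplakin, a linker between keratin filaments and the envelope, rose from 21.7 ± 4.23 to 106 ± 7.34 RPKM (log2 fold change 2.30, standard error 0.14, adjusted p = 4.78e-05). Of the calcium-binding proteins found in squamous epithelium, *S100A14* was at 6.56, 3.77 and 7.52 RPKM in the negative and 77.5, 177 and 144 RPKM in the positive samples, and *S100A9* had a log2 fold change of 3.69. Over the whole list of S100 proteins and annexins, 3 of 16 rose and 1 fell.

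Cell junction and polarity genes were called higher more often than lower. Among tight junction genes, 11 of 17 tested rose and 2 fell, with a median log2 fold change of 2.00. *CLDN4*, a claudin of simple epithelia, was at 39.2, 42.4 and 66.1 RPKM in the negative and 325, 524 and 407 RPKM in the positive samples. *CLDN7*, a claudin of the lateral membrane, was at 8.88, 8.60 and 15.8 RPKM in the negative and 65.5, 101 and 96.8 RPKM in the positive samples. No negative sample reached a positive one for either gene (log2 fold changes 3.10 and 3.01, adjusted p = 9.44e-05 and 0.000177). Claudins did not move together, since *CLDN11* fell from 48.0 ± 4.49 to 8.63 ± 1.79 RPKM and *CLDN2* had a log2 fold change of -2.61, but was not called without negative replicate 1, 2 or 3 or positive replicate 1 or 3 (log2 fold change -2.66 to -2.35, adjusted p = 0.0132 to 0.0211). The most abundant claudin of negative cells, *CLDN1*, was at 90.0, 118 and 114 RPKM in the negative and 64.7, 95.7 and 87.9 RPKM in the positive samples, with overlapping groups and no call (adjusted p = 0.128). Of the apical polarity genes, 7 of 15 rose and none fell. The small GTPase gene *RAB25*, which serves recycling to the apical surface, was at 3.90, 3.21 and 7.14 RPKM in the negative and 74.8, 89.6 and 82.6 RPKM in the positive samples, 17.3-fold higher as a ratio of means (log2 fold change 4.17, standard error 0.26, adjusted p = 4.89e-05). *CRB3*, the crumbs protein of the apical membrane, was at 1.80, 1.24 and 2.04 RPKM in the negative and 11.3, 14.4 and 18.8 RPKM in the positive samples (log2 fold change 3.05). *MAL2*, which encodes a membrane protein of transcytosis, rose to the highest level of the list, from 64.8 ± 14.4 to 531 ± 57.3 RPKM.

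Of the desmosome genes, 5 of 9 rose and none fell. *JUP*, which encodes plakoglobin, rose from 46.2 ± 7.41 to 193 ± 21.9 RPKM (log2 fold change 2.07, standard error 0.13, adjusted p = 5.41e-05). *DSG2*, the desmoglein of simple epithelia, was at 23, 22.7 and 22.2 RPKM in the negative and 61.8, 55.3 and 57.0 RPKM in the positive samples, and *PKP3*, a plakophilin, had a log2 fold change of 1.85. The replicates of *DSG2* were tight, so its smaller rise was still clear of the spread between samples. Cadherins moved in both directions. *CDH1*, E-cadherin, was at 10.1, 11.2 and 16.6 RPKM in the negative and 95.6, 111 and 101 RPKM in the positive samples. *CDH3*, P-cadherin, also rose (log2 fold change 2.43), whereas N-cadherin, *CDH2*, was at 5.60, 5.87 and 5.17 RPKM in the negative and 1.55, 1.09 and 0.905 RPKM in the positive samples. *CDH2* thus fell in all 3 positive samples (log2 fold change -2.17, standard error 0.20, adjusted p = 0.000262). The mesenchymal cadherin *CDH11* was the most abundant cadherin of negative cells and was not called, at 105, 110.0 and 101 RPKM in the negative and 94.1, 62.3 and 72.6 RPKM in the positive samples (adjusted p = 0.0412). Of the catenins none was called, and *CTNND1*, p120, had a log2 fold change of 0.41.

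**Figure D2:**
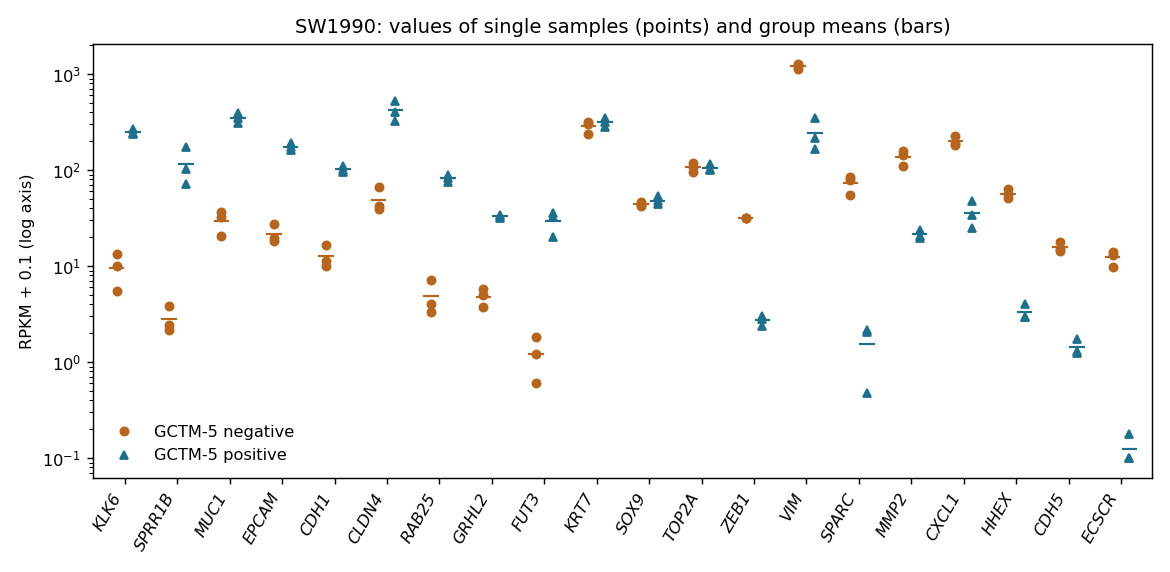
RPKM + 0.1 of 20 genes on a log axis, with 1 point for each of the 3 negative (brown circles) and 3 positive (blue triangles) SW1990 samples and a bar at each group mean. *KRT7*, *SOX9* and *TOP2A* overlap between the groups, and the other 17 genes do not.

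Transcription factors of the epithelial and mesenchymal states were counted separately. Of 15 epithelial factors tested, 8 rose and none fell, and of 7 factors known for driving epithelial to mesenchymal transition, none rose and 3 fell. *OVOL1*, a zinc finger repressor of the mesenchymal programme, was at 0.386, 0.284 and 0.711 RPKM in the negative and 7.74, 9.98 and 8.35 RPKM in the positive samples. *SPDEF*, an ETS factor of secretory epithelium, was at 8.92, 8.60 and 13.1 RPKM in the negative and 58.3, 62.9 and 55.6 RPKM in the positive samples. Positive samples lay above negative ones throughout (log2 fold changes 4.04 and 2.54, adjusted p = 7.13e-05 and 4.89e-05). *EHF* and *KLF5*, the most abundant of the list, were higher in every positive sample but short of the fold threshold, with log2 fold changes of 0.92 and 0.60. *ELF3*, an ETS factor of gut and duct epithelium, rose from 17.1 ± 3.18 to 45.2 ± 10.4 RPKM, and without positive replicate 3 it was not called (adjusted p = 0.0101). On the other side, *ZEB1*, a repressor of E-cadherin (GRCh37 chr10:31607424-31818742), was at 32.0, 32.0 and 31.9 RPKM in the negative and 2.91, 2.31 and 2.69 RPKM in the positive samples. *ZEB2* was at 0.860, 1.2 and 0.946 RPKM in the negative and 0.0708, 0.0505 and 0.111 RPKM in the positive samples, and *SNAI1* at 2.22, 2.67 and 2.22 RPKM in the negative and 0.483, 0.483 and 0.926 RPKM in the positive samples. All 3 fell without overlap (log2 fold changes -3.56, -2.64 and -1.81), and *SNAI1* was not called without negative replicate 2 (adjusted p = 0.0117). *SNAI2*, in contrast, was at 34.1, 28.1 and 15.1 RPKM in the negative and 32.1, 18.2 and 15.9 RPKM in the positive samples, with overlapping groups (adjusted p = 0.688). Of 11 splicing regulators of these states, the epithelial pair *ESRP1* and *ESRP2* rose and 2 others, *RBM24* and *NOVA1*, fell (log2 fold changes -2.51 and -2.19), but *RBM24* was not called without negative replicate 1 or 2 or positive replicate 3 (log2 fold change -2.46 to -2.37, adjusted p = 0.0114 to 0.0136) and *NOVA1* was not called without negative replicate 2 or 3 or positive replicate 3 (log2 fold change -2.19 to -2.03, adjusted p = 0.0103 to 0.0145). *ESRP1* was at 5.18, 3.88 and 8.04 RPKM in the negative and 60.7, 70.0 and 66.2 RPKM in the positive samples (log2 fold change 3.56, standard error 0.23, adjusted p = 5.62e-05), and *ESRP2* had a log2 fold change of 1.90.

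The microRNAs that target *ZEB1* and *ZEB2* are shown because entries of their genes, and for miR-205 also a host transcript, were measured here. The mature forms were not. Mature sequences are those of RefSeq on GRCh38.p14, all 4 on the plus strand of chromosome 1, with the seed, bases 2 to 8, in capitals.
hsa-miR-200b-3p: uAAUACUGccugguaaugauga
hsa-miR-429: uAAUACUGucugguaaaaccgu
hsa-miR-200a-3p: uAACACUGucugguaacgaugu
hsa-miR-205-5p: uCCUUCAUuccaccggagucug
miR-200b-3p (chr1:1167160-1167181) and miR-429 (chr1:1169055-1169076) share the seed AAUACUG, miR-200a-3p (chr1:1167916-1167937) differs from it within the seed, and miR-205-5p (chr1:209432166-209432187) has an unrelated seed. The host transcript of miR-205, *MIR205HG*, had 56, 33 and 47 reads in negative and 270, 295 and 399 reads in positive samples. It rose in every positive sample (log2 fold change 2.96, standard error 0.27, adjusted p = 0.000239). The gene entry *MIR205* itself had 3, 1 and 3 reads in negative and 25, 14 and 29 reads in positive samples and was called (log2 fold change 3.4), but it lies within the host transcript, so both entries may count the same reads. At the miR-200b cluster the reads were few, with 1, 0 and 0 reads in negative and 2, 7 and 8 reads in positive samples for *MIR429*. *MIR429* was called, but was not called without negative replicate 2 or 3 or positive replicate 2 or 3 (log2 fold change 3.68 to 3.84, adjusted p = 0.031 to 0.0389). Its call was also lost with a pseudocount of 0.01, without the filter on low values, with a replicate block, without the variance trend and by voom. *MIR200B*, with 0, 0 and 1 reads in negative and 2, 7 and 6 in positive samples, and *MIR200A* were not called. These genes were chosen after their values were seen, and polyadenylated RNA holds primary transcripts, not mature microRNAs.

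The hexamer CAGGTG, an E-box to which ZEB and SNAI factors are known to bind, was counted on both strands in the 250 bases before the first listed start of each gene (RefSeq, GRCh38.p14). Of 27305 promoters in the reference table, 17.5% held it, as did 16.3% of the 10367 genes tested that matched a promoter by symbol. Among genes called higher, 374 of 624 matched and 143 of these (38.2%) held the hexamer, and among genes called lower, 600 of 919 matched and 61 (10.2%) held it. The share followed the size of the rise, at 32.2% for rises of 2- to 4-fold, 39.4% for 4- to 8-fold and 56.7% (34 of 60) for over 8-fold, whereas it was 9.92%, 10.7% and 10.1% for falls of these sizes. Genes not called held it in 15.8% of 9393 promoters. The same letters in reverse order, GTGGAC, were in 8.29% of the promoters of genes called higher, 7.17% of those called lower and 8.26% of those tested. Other E-boxes differed less, with CAGCTG in 16% of higher, 14.2% of lower and 13% of tested genes and CACGTG in 5.08%, 7.33% and 8.68%. For GGAATG, known as a site of TEAD factors, the shares were 13.1%, 9.0% and 9.72%. The mean content of G and C was alike, at 62.4% in genes called higher, 64.0% in genes called lower and 63.8% in genes tested. Counting a match near any listed start of a gene gave 46.5% of higher, 19.2% of lower and 21.4% of tested genes. Genes are not independent, and these shares are descriptions to which no test was applied, and a match is a run of letters and not a bound site.

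**Figure D3:**
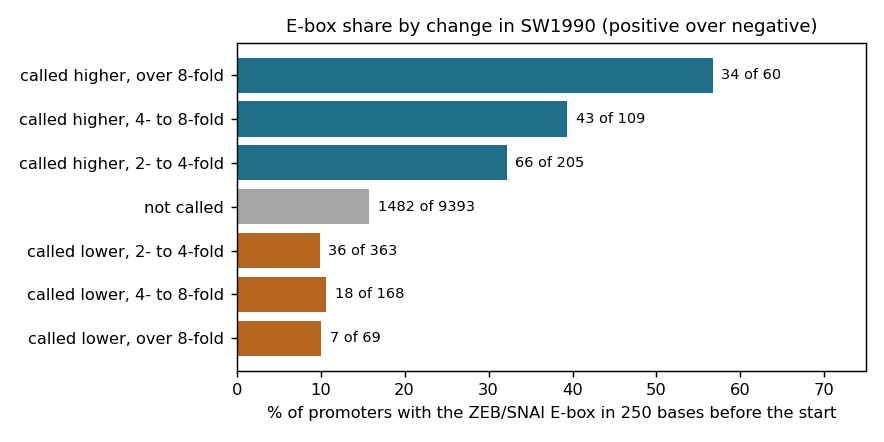
Bars give the percentage of promoters, 250 bases before the first listed start, that hold the E-box hexamer on either strand, for genes grouped by their change in SW1990, with the number of promoters beside each bar. The share climbs from 15.8% in genes not called to 56.7% in genes that rose over 8-fold and stays between 9.92% and 10.7% in genes that fell.

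Promoters of 4 genes that rose are printed because they hold several matches, with the hexamer or its complement CACCTG in capitals and each sequence running 5′ to 3′ on the strand of its gene.
CRB3: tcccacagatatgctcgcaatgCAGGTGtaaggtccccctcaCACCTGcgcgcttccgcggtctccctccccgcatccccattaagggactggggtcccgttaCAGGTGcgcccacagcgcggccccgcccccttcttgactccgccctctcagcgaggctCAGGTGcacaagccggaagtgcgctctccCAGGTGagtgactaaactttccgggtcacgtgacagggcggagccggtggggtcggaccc
AP1M2: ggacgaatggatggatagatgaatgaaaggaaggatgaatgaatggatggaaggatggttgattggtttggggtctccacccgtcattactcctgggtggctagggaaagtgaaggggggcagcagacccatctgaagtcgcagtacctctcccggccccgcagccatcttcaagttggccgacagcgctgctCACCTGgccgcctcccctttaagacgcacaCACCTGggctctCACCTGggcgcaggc
MUC1: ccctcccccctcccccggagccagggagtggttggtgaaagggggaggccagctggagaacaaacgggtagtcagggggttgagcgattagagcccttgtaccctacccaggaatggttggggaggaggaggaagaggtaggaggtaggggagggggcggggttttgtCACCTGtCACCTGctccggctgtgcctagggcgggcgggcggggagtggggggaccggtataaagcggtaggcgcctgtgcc
FUT3: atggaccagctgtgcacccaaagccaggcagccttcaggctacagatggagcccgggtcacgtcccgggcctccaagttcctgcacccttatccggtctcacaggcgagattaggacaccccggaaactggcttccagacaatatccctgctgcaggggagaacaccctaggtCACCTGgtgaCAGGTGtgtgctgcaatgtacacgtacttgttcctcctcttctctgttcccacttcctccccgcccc
The stretches lie in GRCh38.p14 at chr19:6464021-6464270 on the plus strand for *CRB3*, and on the minus strand at chr19:10587313-10587562 for *AP1M2*, chr1:155192916-155193165 for *MUC1* and chr19:5851450-5851699 for *FUT3*. They hold 5, 3, 2 and 2 matches, and the match nearest to the start began 60, 15, 75 and 67 bases before it. *AP1M2*, the epithelial adaptor subunit that sorts proteins to the basolateral membrane, was at 0.528, 0.638 and 1.10 RPKM in the negative and 15, 20.8 and 17.9 RPKM in the positive samples (log2 fold change 4.44, standard error 0.25, adjusted p = 3.99e-05).

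Secreted and membrane-bound serine proteases of epithelium formed the list with the most members called. Of 21 tested, 14 rose and 1 fell, with a median log2 fold change of 2.06. The kallikrein genes stand in a row on chromosome 19 of GRCh37 (51322402 to 51587502), and 7 of the 10 tested there rose. *KLK6* was at 10.0, 5.37 and 13.2 RPKM in the negative and 239, 245 and 270.4 RPKM in the positive samples, 26.4-fold higher as a ratio of means (log2 fold change 4.80, standard error 0.28, adjusted p = 4.33e-05). *KLK10* was at 24.8, 21.7 and 33.5 RPKM in the negative and 278, 332 and 305 RPKM in the positive samples (log2 fold change 3.53), and *KLK11* rose by a log2 value of 3.80. Positive replicates of *KLK6* and *KLK10* spread little in proportion to their means, and negative replicate 2 was the lowest for both. *PRSS8*, prostasin, a membrane-anchored protease that acts on epithelial sodium channels, was at 4.82, 4.58 and 10.1 RPKM in the negative and 46.8, 109 and 79.9 RPKM in the positive samples. Its inhibitor *SPINT2* rose as well, from 116 ± 21.0 to 342 ± 26.8 RPKM. The member that fell was *SERPINE2*, a protease inhibitor of the matrix (log2 fold change -3.02).

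Mucins, secreted proteins and surface antigens of gland epithelium had members called higher and none called lower. Of 7 mucins tested, 4 rose and none fell. *MUC1*, the membrane mucin of ducts, was at 32.1, 20.4 and 36.5 RPKM in the negative and 313, 393 and 350.1 RPKM in the positive samples (log2 fold change 3.60, standard error 0.21, adjusted p = 3.99e-05). *MUC20*, another membrane mucin, was at 0.542, 0.530 and 1.11 RPKM in the negative and 8.36, 41.1 and 24.1 RPKM in the positive samples, with positive replicate 1 well below the other two, and *MUC4* was at 0.0492, 0.0614 and 0.0673 RPKM in the negative and 1.17, 2.36 and 1.63 RPKM in the positive samples. Every positive sample lay above every negative one for these mucins, but *MUC20* and *MUC4* varied between positive samples by more than *MUC1* did. Among 14 genes of secretory and gastric lineages, 9 rose and none fell. *WFDC2*, which encodes the secreted protein HE4, was at 1.29, 1.59 and 3.5 RPKM in the negative and 23.7, 48.7 and 34.5 RPKM in the positive samples, and *AGR2*, a folding enzyme of mucin-secreting cells, had a log2 fold change of 2.70. *TFF1*, a trefoil peptide of gastric mucosa, had 0, 0 and 0 reads in negative and 10, 15 and 17 reads in positive samples, and was at least 5.31-fold higher in positive cells. *LCN2*, lipocalin, was abundant in both populations and rose from 151 ± 45.3 to 496 ± 100.1 RPKM. Of the epithelial surface antigens, 9 of 17 rose and none fell, though the lowest member, not called, had a log2 fold change of -2.15. *CD24*, a small sialoglycoprotein, was at 3.04, 3.19 and 2.96 RPKM in the negative and 17.9, 34.1 and 16.9 RPKM in the positive samples, and *CEACAM6* was at a log2 fold change of 3.45. The CEACAM genes are close paralogs between which reads may be split.

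Glycan enzymes bear on the antigen because GCTM-5 binds a complex that carries sialyl Lewis A. On a glycan array in the study, however, the GCTM-5 antibody itself did not reach the cut-off for sialyl Lewis A. The study describes its epitope as distinct from that structure. Whether the enzymes below make the GCTM-5 epitope was not tested. Of 24 genes of Lewis antigen synthesis tested, 6 rose and 2 fell, and the median log2 fold change was 0.21. The fucosyltransferase gene *FUT3*, which makes the Lewis A and sialyl Lewis A structures, was at 1.13, 0.514 and 1.75 RPKM in the negative and 19.8, 35.5 and 32.4 RPKM in the positive samples. *B3GNT3*, an enzyme that extends core O-glycans, was at 5.06, 4.12 and 7.07 RPKM in the negative and 50.3, 67.3 and 59.7 RPKM in the positive samples (log2 fold change 3.45, standard error 0.20, adjusted p = 3.99e-05). Both separated the groups in every sample, as did the H antigen transferases *FUT1* and *FUT2* (log2 fold changes 1.74 and 2.44). The core fucosyltransferase *FUT8*, which acts on N-glycans, overlapped between the groups at a log2 fold change of -0.10. Of 21 other glycan enzymes tested, most of them of mucin O-glycans, 5 rose and 1 fell. *GALNT3*, which starts O-glycans, rose from 7.86 ± 1.57 to 45.2 ± 9 RPKM. The sialyltransferase *ST6GAL1*, not specific to mucin O-glycans, fell from 3.41 ± 0.389 to 0.459 ± 0.136 RPKM. Proteins reported in the GCTM-5 complex were counted together with galectins, and none of the 9 tested was called. Over all genes tested 3.94% were called higher and 5.8% lower, so a count of 0 here is near that share. *LGALS3BP*, the most abundant, was at 1259, 1545 and 1569 RPKM in the negative and 1009, 1264 and 1138 RPKM in the positive samples (log2 fold change -0.36, adjusted p = 0.111). *FCGBP* and *C3* overlapped as well (log2 fold changes -1.37 and 0.28, adjusted p = 0.085 and 0.499). The study detected LGALS3BP and C3 in the complex from SW1990, whereas it detected FCGBP in that from CFPAC-1 and not in that from SW1990. It also found LGALS3BP in the CFPAC-1 complex, and HPX in the complex from both lines.

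Mesenchymal cytoskeleton and matrix genes were called lower more often than higher. Of 14 cytoskeleton genes, 5 fell (5.8% of all genes tested did) and 1, *LMO7*, an adhesion protein gene, rose, though it was not called without negative replicate 1, 2 or 3 or positive replicate 2 or 3 (log2 fold change 0.90 to 1.17, adjusted p = 0.0114 to 0.0373). Vimentin, *VIM*, was at 1219, 1286 and 1120.2 RPKM in the negative and 350.4, 167 and 217 RPKM in the positive samples. It fell in every positive sample, yet all of them still expressed it at 167 RPKM or above (log2 fold change -2.37, standard error 0.25, adjusted p = 0.0004). The alpha-tubulin gene *TUBA1A*, typical of neurons and motile cells, was at 119, 132 and 132 RPKM in the negative and 6.59, 8.03 and 6.41 RPKM in the positive samples (log2 fold change -4.17, standard error 0.11, adjusted p = 6.92e-06). The actin regulators *MYL9*, *CALD1* and *TPM1* fell by similar amounts (log2 fold changes -1.44, -1.40 and -1.35), whereas the actin bundler *FSCN1* was at 233, 235 and 233 RPKM in the negative and 244, 209 and 228 RPKM in the positive samples and was not called. Of 15 collagen genes, 6 fell and 2 rose. The chains of collagen VI fell together, *COL6A1* from 201 ± 27.7 to 40.3 ± 2.61 RPKM, *COL6A2* from 101 ± 17.0 to 15.4 ± 1.82 RPKM and *COL6A3* from 6.41 ± 0.683 to 0.404 ± 0.0873 RPKM. *COL6A1* and *COL6A2* are neighbours on chromosome 21 of GRCh37 (47401684 to 47552762). The members that rose were *COL17A1*, the collagen of hemidesmosomes, and *COL8A1* (log2 fold changes 1.62 and 1.39), of which *COL8A1* was not called without negative replicate 1, 2 or 3 or positive replicate 1 or 3 (log2 fold change 1.26 to 1.51, adjusted p = 0.0118 to 0.0267).

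Matrix glycoproteins had 9 of 22 members lower and 1, *NID2* of basement membranes, higher, with a median log2 fold change of -1.15. *SPARC*, a collagen-binding protein (GRCh37 chr5:151040657-151066536), was at 55.0, 79.1 and 85.1 RPKM in the negative and 0.373, 1.97 and 2.04 RPKM in the positive samples. Versican, *VCAN*, was at 21.0, 26.8 and 26.2 RPKM in the negative and 2.65, 2.27 and 1.80 RPKM in the positive samples, and osteopontin, *SPP1*, at 27.3, 46.4 and 60.1 RPKM in the negative and 1.59, 4.09 and 3.27 RPKM in the positive samples. None of the 3 overlapped between the groups (log2 fold changes -5.81, -3.41 and -3.88, adjusted p = 0.000255, 3.11e-05 and 0.000317). *TGFBI*, the most abundant of the list, was lower in every positive sample without passing the thresholds (log2 fold change -0.71, standard error 0.17, adjusted p = 0.016). Of 22 laminins and integrins, 4 rose and 5 fell, and the lower count ran from 4 to 10 over the alternatives. The laminin chains *LAMA3* and *LAMB3*, found in epithelial basement membranes, rose (log2 fold changes 2.51 and 1.26). The epithelial integrin chain *ITGB6* was at 0.893, 0.502 and 1.13 RPKM in the negative and 11, 13 and 10.5 RPKM in the positive samples, whereas *ITGB3*, the partner of the alpha-V chain in motile and vascular cells, was at 3.12, 2.96 and 4.44 RPKM in the negative and 0.0948, 0.217 and 0.242 RPKM in the positive samples. The main integrin chain of both populations, *ITGA3*, was at 178, 195 and 197 RPKM in the negative and 170.3, 215 and 187 RPKM in the positive samples and did not separate them. Among matrix proteases and their inhibitors, 8 of 21 fell and 1 rose. Gelatinase *MMP2* was at 112, 159 and 145 RPKM in the negative and 23.8, 20.5 and 19.7 RPKM in the positive samples, and the inhibitor *TIMP3* at 254, 288 and 311 RPKM in the negative and 41.5, 51.0 and 60.7 RPKM in the positive samples. Both fell in all positive samples (log2 fold changes -2.68 and -2.49), and the collagen receptor *MRC2* fell further (-3.94). The membrane protease *MMP14* was lower in every positive sample but under the fold threshold (log2 fold change -0.70).

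The fall with the largest log2 value belonged to a gene of blood vessels. *ECSCR*, an endothelial surface regulator (GRCh37 chr5:138784245-138842328), was at 13.1, 13.9 and 9.77 RPKM in the negative and 0, 0 and 0.0768 RPKM in the positive samples. With 198, 238 and 127 reads in negative and 0, 0 and 1 reads in positive samples, it was at least 54-fold lower in positive cells. VE-cadherin, *CDH5*, was at 14.2, 15 and 17.7 RPKM in the negative and 1.16, 1.21 and 1.63 RPKM in the positive samples (log2 fold change -3.46, standard error 0.16, adjusted p = 3.11e-05). *ESM1*, a proteoglycan secreted by endothelium, was at 16.9, 13.5 and 8.74 RPKM in the negative and 0.321, 0.113 and 0.757 RPKM in the positive samples, and *RHOJ*, a small GTPase of endothelium, at 8.58, 6.45 and 6.39 RPKM in the negative and 0.313, 0.0977 and 0.312 RPKM in the positive samples. *HHEX*, a homeobox factor of endothelial precursors and of foregut endoderm, was at 63.5, 56.0 and 51.4 RPKM in the negative and 2.87, 2.88 and 3.95 RPKM in the positive samples. For these 5 genes the groups did not overlap, and the adjusted p was at most 0.000323. The ETS factor gene *FLI1*, chosen after its values were seen, fell from 20.6 ± 0.328 to 7.15 ± 0.840 RPKM, and *TIE1*, a vascular receptor kinase, had 41, 51 and 44 reads in negative and 2, 3 and 0 reads in positive samples. Other vascular genes did not follow. *PECAM1* was at 0.481, 0.781 and 0.889 RPKM in the negative and 0.232, 0.490 and 0.368 RPKM in the positive samples, with overlapping groups, *SOX18* and *VWF* were not called, and *KDR* and *EMCN* were at or near 0. The most abundant of these genes, *SOX7*, was lower in every positive sample with a log2 fold change of -0.47, under the threshold. These vascular genes were put together after their values were seen, from the largest falls, the endothelial markers and other lists, so their number carries no test.

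**Figure D4:**
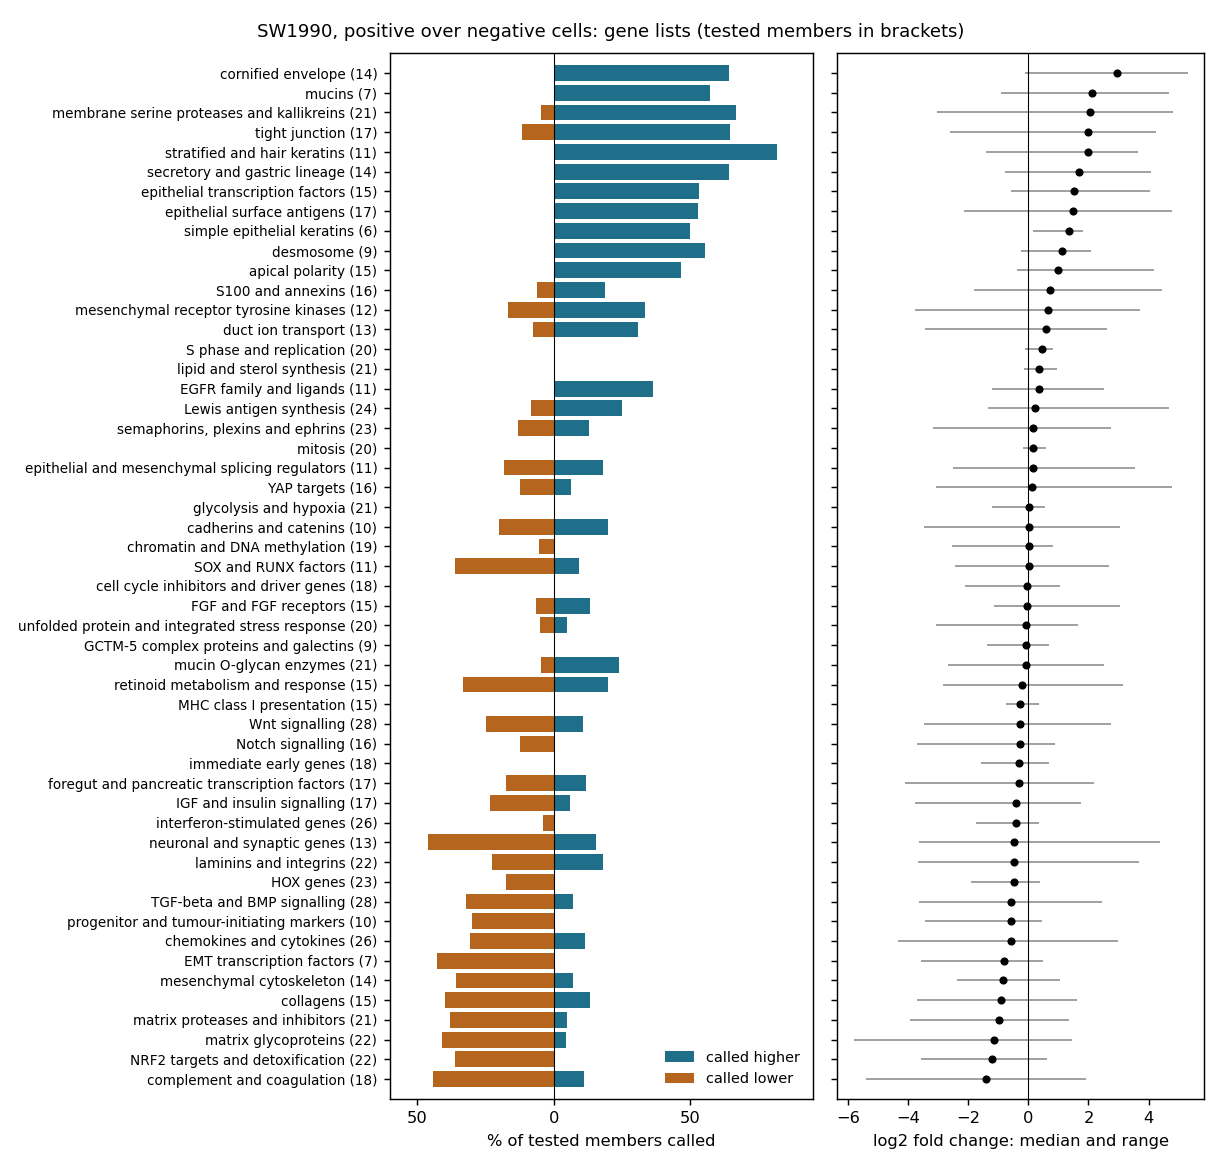
For each gene list, with the number of tested members in brackets, the left panel gives the percentage of members called higher (blue, to the right) or lower (brown, to the left) and the right panel the median log2 fold change (point) from the lowest to the highest member (line). Cornified envelope, mucin, protease and junction lists stand at the top and the complement, NRF2 and matrix lists at the bottom, and lists of replication, mitosis, lipid synthesis and glycolysis have no member called.

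Signalling genes were described by pathway, beginning with targets and modifiers of TGF-beta and BMP. Of 28 genes tested in that list 9 fell and 2 rose, with a median log2 fold change of -0.58. *ID3*, a direct BMP target, was at 84.7, 64.2 and 43.7 RPKM in the negative and 6.24, 3.14 and 6.01 RPKM in the positive samples, while *ID1*, another, was at 407, 370.0 and 330.2 RPKM in the negative and 226, 241 and 258 RPKM in the positive samples. *ID3* fell (log2 fold change -3.63, standard error 0.31, adjusted p = 0.000172), and *ID1* was lower in every positive sample but under the fold threshold (log2 fold change -0.61). The ligand *BMP2* and the decoy receptor *BAMBI* fell (log2 fold changes -3.12 and -2.44), as did the inhibitory SMADs *SMAD6* and *SMAD7* (-1.91 and -2.32). Follistatin, *FST*, which binds activin, rose from 4.17 ± 0.932 to 22.8 ± 1.94 RPKM. In Wnt signalling, 3 of 28 rose and 7 fell. The ligands *WNT10A*, *WNT7A* and *WNT7B* rose, and *WNT10A* was at 5.10, 4.96 and 5.40 RPKM in the negative and 32.7, 41.4 and 31.8 RPKM in the positive samples. *WNT7A* was not called without negative replicate 1, 2 or 3 or positive replicate 1, 2 or 3 (log2 fold change 1.57 to 1.93, adjusted p = 0.0149 to 0.0301). *AXIN2*, a feedback target of the pathway, was at 1.82, 1.80 and 2.22 RPKM in the negative and 0.0853, 0.111 and 0.0534 RPKM in the positive samples, and the secreted inhibitor *DKK1* at 337, 348 and 252 RPKM in the negative and 129, 126 and 109.9 RPKM in the positive samples. Every positive sample was below every negative one for *AXIN2* and *DKK1* (log2 fold changes -3.48 and -1.35, adjusted p = 7.82e-05 and 0.0004).

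Of 11 genes of the EGF receptor family and its ligands, 4 rose and none fell. The receptor *ERBB3* was at 2.94, 2.18 and 4.31 RPKM in the negative and 14.1, 20.9 and 18.5 RPKM in the positive samples, and the ligand *EREG* at 22.1, 22.1 and 24.4 RPKM in the negative and 59.4, 66.9 and 58.8 RPKM in the positive samples. Both separated the groups (log2 fold changes 2.5 and 1.43), as did the ligand *HBEGF* (1.27). FGF receptors moved in opposite directions, with *FGFR2* at 0.306, 0.270 and 0.284 RPKM in the negative and 2.36, 4.11 and 3.02 RPKM in the positive samples and *FGFR1* at 22.2, 17.3 and 17.0 RPKM in the negative and 10.3, 7.37 and 8.14 RPKM in the positive samples. *FGFR2*, whose epithelial isoform is made with the ESRP proteins, rose and *FGFR1* fell (log2 fold changes 3.04 and -1.13), and of 15 genes in the list 2 rose and 1 fell. In the IGF list 4 of 17 fell and 1 rose, with *IGFBP5*, a binding protein, at a log2 fold change of -3.47 and the insulin receptor *INSR* at -1.72. *IGFBP4*, the most abundant member, was at 577, 614 and 555 RPKM in the negative and 368, 344 and 382 RPKM in the positive samples, under the fold threshold. Of 12 receptor kinases linked to mesenchyme or guidance 4 rose and 2 fell, and the members that rose, such as *EPHA1* and *MST1R* (log2 fold changes 3.71 and 1.62), are known from epithelium. *AXL* overlapped between the groups, at 121, 123 and 94.1 RPKM in the negative and 106, 74.6 and 78.8 RPKM in the positive samples. Among 16 Notch genes 2, *HEY1* and *HEYL*, fell, while the target *HES1* stood at a log2 fold change of -0.10 (adjusted p = 0.575). Of 16 genes of the YAP and TEAD list 1 rose and 2 fell. The TEAD cofactor *VGLL1* was at 2.48, 1.45 and 4.05 RPKM in the negative and 61.8, 70.6 and 78.3 RPKM in the positive samples, *TEAD2* at 12.5, 13.9 and 14 RPKM in the negative and 1.28, 1.37 and 2.01 RPKM in the positive samples, and the target *CTGF* at 68.3, 66.8 and 52.7 RPKM in the negative and 28.7, 23.6 and 26.5 RPKM in the positive samples. *VGLL1* rose (log2 fold change 4.78, standard error 0.32, adjusted p = 5.78e-05), and *TEAD2* and *CTGF* fell (log2 fold changes -3.06 and -1.24). Of 23 guidance genes 3 rose and 3 fell, led by *SEMA3C*, from 87.9 ± 20.5 to 9.60 ± 1.34 RPKM.

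Genes of inflammation were lower more often than higher in positive cells. Of 26 chemokines and cytokines, 8 fell and 3 rose. *CXCL1* was at 182, 229 and 189.8 RPKM in the negative and 24.9, 47.9 and 34.2 RPKM in the positive samples, *CXCL6* at 15, 19.2 and 17.5 RPKM in the negative and 0.870, 1.74 and 1.22 RPKM in the positive samples, and their neighbour *CXCL5* at 202, 297 and 331 RPKM in the negative and 332, 515 and 462 RPKM in the positive samples. The first 2 fell (log2 fold changes -2.53 and -3.70), whereas *CXCL5* was higher in every positive sample and was not called (log2 fold change 0.66, adjusted p = 0.0617). These ligands of the CXCR2 receptor lie together on chromosome 4 of GRCh37 (74702357 to 74964913), where 2 of the 5 genes counted fell. *IL33*, an alarmin, was at 5.81, 9.46 and 11.3 RPKM in the negative and 0.0762, 0.566 and 0.584 RPKM in the positive samples, and *CXCL12*, a stromal chemokine, at 7.19, 8.79 and 8.55 RPKM in the negative and 0.0975, 0.267 and 0.149 RPKM in the positive samples. The interleukin 1 receptor antagonist *IL1RN*, typical of squamous epithelium, rose from 17.6 ± 5.46 to 142 ± 49.5 RPKM. In the complement and coagulation list, 8 of 18 fell and 2 rose. The first component proteases *C1R* and *C1S*, neighbours on chromosome 12 (7096351 to 7245203), both fell. *C1R* was at 27.9, 57.4 and 58.6 RPKM in the negative and 1.36, 4.21 and 2.69 RPKM in the positive samples. *C1S* was at 8.92, 19.1 and 21.4 RPKM in the negative and 0, 0.713 and 0.522 RPKM in the positive samples. Replicate 1 was the lowest of its group for both genes in both populations, and no positive sample reached a negative one (log2 fold changes -4.13 and -5.39). Tissue factor, *F3*, which starts coagulation, rose from 183 ± 23.8 to 691 ± 66.8 RPKM (log2 fold change 1.92, standard error 0.12, adjusted p = 5.41e-05). Of 26 interferon-stimulated genes 1 was called, *BST2*, which tethers viruses to the membrane (log2 fold change -1.75), and it was not called without negative replicate 2 or 3 or positive replicate 3 (log2 fold change -1.75 to -1.66, adjusted p = 0.0142 to 0.016). Of 15 genes of antigen presentation none was called, with *B2M* at 1962, 2664 and 2544 RPKM in the negative and 1515, 2323 and 1711 RPKM in the positive samples. Counting all members, 17 of the 26 interferon-stimulated genes were lower in every positive sample, against 26.1% of all genes tested.

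Metabolic genes changed in the detoxification and retinoid lists. Of 22 targets of NRF2 and detoxification enzymes, 8 fell and none rose, with a median log2 fold change of -1.21. The aldo-keto reductase gene *AKR1C3* was at 5.23, 9.89 and 7.60 RPKM in the negative and 0.573, 0.684 and 0.371 RPKM in the positive samples, and *AKR1C1* at 2.79, 4.14 and 4.06 RPKM in the negative and 0.262, 0.427 and 0.164 RPKM in the positive samples. The *AKR1C* genes lie in a row on chromosome 10 of GRCh37 (5005445 to 5260912), and all 3 tested there fell, but they are close paralogs among which reads may be shared. *NQO1*, a quinone reductase, was at 221, 299.9 and 275 RPKM in the negative and 126, 168 and 136 RPKM in the positive samples, lower in every positive sample but under the fold threshold (log2 fold change -0.89). Outside the lists, *NNMT*, which methylates nicotinamide, was among the largest falls, at 19.7, 22.2 and 19.1 RPKM in the negative and 0.261, 0.523 and 1.36 RPKM in the positive samples (log2 fold change -4.88, standard error 0.44, adjusted p = 0.000217). Retinoid genes moved both ways, with 3 of 15 higher and 5 lower. *CRABP2*, which carries retinoic acid to the nucleus, was at 26.9, 25 and 36.4 RPKM in the negative and 202, 313 and 277 RPKM in the positive samples, and the retinol oxidising enzyme gene *DHRS9* at 11.2, 14.2 and 17.7 RPKM in the negative and 66.0, 121 and 92.0 RPKM in the positive samples. Those 2 rose (log2 fold changes 3.15 and 2.67), whereas the retinol receptor gene *STRA6* and *CYP26B1*, which degrades retinoic acid, fell (-2.85 and -2.68). *ALDH1A3*, which makes retinoic acid, was at 327, 385 and 429.8 RPKM in the negative and 369, 682 and 546 RPKM in the positive samples, with overlapping groups. In duct ion transport 4 of 13 rose and 1 fell, with the chloride channel gene *ANO1* from 58.3 ± 6.15 to 121 ± 6.99 RPKM and the anion transporter gene *SLC26A9* at a log2 fold change of 2.60. *ANO1* was not called without negative replicate 2 (log2 fold change 0.98, adjusted p = 0.00118). Carbonic anhydrase *CA12* was the member that fell (-3.43).

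Developmental factors changed in single genes of several lists, where 3.94% of all genes tested were called higher and 5.8% lower. Of 17 foregut and pancreatic factors 2 rose and 3 fell, with *HHEX* (log2 fold change -4.11) and *NR5A2*, a factor of acinar cells (-2.05), among the falls and *FOXA2*, an endoderm factor, from 3.39 ± 0.804 to 9.89 ± 0.779 RPKM. In the SOX and RUNX families *SOX15* rose and 4 of 11 fell, *RUNX2*, a bone factor, and *SOX4* among them (log2 fold changes 2.68, -2.42 and -1.62). None of 23 HOX genes rose and 4 fell, while *HOXB7* was at 31.0, 33.7 and 32.4 RPKM in the negative and 32.3, 33.9 and 31.1 RPKM in the positive samples. Of 19 chromatin genes only the Polycomb gene *CBX2* was called, at 6.07, 4.67 and 5.67 RPKM in the negative and 0.898, 0.684 and 1.02 RPKM in the positive samples. That count is near the share called lower over all genes. Of 17 markers used for progenitor or tumour-initiating cells, 10 passed the filter, and 0 of these were called higher and 3 called lower. A count of 0 higher is near the share over all genes. *CXCR4*, the receptor of CXCL12, was at 3.11, 4.20 and 4.51 RPKM in the negative and 0.334, 0.323 and 0.169 RPKM in the positive samples, and *CD44*, the hyaluronan receptor, at 284, 312 and 281 RPKM in the negative and 142, 108 and 118 RPKM in the positive samples. Both fell (log2 fold changes -3.44 and -1.26, adjusted p = 0.000107 and 0.000234). Neuronal genes had 6 of 13 lower and 2 higher, with *DPYSL3*, a protein of growth cones, from 23 ± 4.82 to 2.10 ± 0.623 RPKM, and *GABRP*, a receptor subunit found in epithelia, at 0.147, 0.325 and 0.632 RPKM in the negative and 3.89, 10.4 and 16.9 RPKM in the positive samples. Of 2 cancer-testis genes that passed the filter, *PRAME* fell from 21.5 ± 0.338 to 9.10 ± 0.474 RPKM.

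Several lists had no member called. None of 20 S phase genes, 20 mitosis genes or 18 cell cycle inhibitors and driver genes passed the thresholds. Over all genes tested 3.94% were called higher and 5.8% lower, so counts of 0 in lists of this size are near the share over all genes. *TOP2A* was at 119, 107 and 95.9 RPKM in the negative and 116, 100.4 and 103 RPKM in the positive samples, and *CCND1* at 168, 152 and 141 RPKM in the negative and 216, 199 and 203 RPKM in the positive samples. S phase genes were off the centre of all genes, with a median log2 fold change of 0.45 and 12 of 20 higher in every positive than in every negative sample, where 18.3% of all genes tested were. Proliferating cell nuclear antigen, *PCNA*, was at 107, 107 and 79.5 RPKM in the negative and 139.8, 123 and 125 RPKM in the positive samples (adjusted p = 0.0506). Likewise none of 21 genes of lipid and sterol synthesis, 21 of glycolysis and hypoxia or 18 immediate early genes was called, with medians of 0.36, 0.03 and -0.30. In the stress response list 1 of 20 rose and 1 fell, *ERN2* of mucous epithelium and the matrix-linked factor gene *CREB3L1* (log2 fold changes 1.66 and -3.08). A count of 0 here is that of limma at an adjusted p under 0.01 and over 2-fold, and 6324 of all genes tested had an unadjusted p under 0.05.

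How far each transcript remained in the population with less of it was measured as the level there in percent of the level in the other. For the 12 largest rises among genes of at least 5 RPKM, negative cells held 2.26% to 4.22% of the positive level (median 3.36%), and for the 12 largest falls, positive cells held 0.209% to 5.49% of the negative level (median 3.32%). The 12 rises included *BSPRY*, *C2orf54* and *STEAP4*, a metalloreductase gene, at log2 fold changes of 4.90, 4.72 and 4.49, and the 12 falls included *GJA1*, the gap junction gene connexin 43, and *PLSCR4*, a phospholipid scramblase gene (-4.29 and -4.20). Over all 396 genes called higher at that level the median was 27.3%, and over all 418 called lower it was 33.7%. The size of the change was fixed by the choice of these genes, and the values are a description.

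Whether a change in SW1990 exceeded that in CFPAC-1, the other line sorted in the same way, was tested as the difference of the log2 fold changes in a fit of all 12 samples. With a threshold of 0.05 on the adjusted p, a difference was found for 4374 of 16236 genes tested (26.9%), of which 1487 had the larger and 2887 the smaller value in SW1990. Of the 624 genes called higher in SW1990, 499 had a larger change there than in CFPAC-1, 120 had no difference called and 5 had a smaller change. Of the 913 genes called lower in SW1990 that were in this fit, 673 had the more negative change in SW1990, 237 had no difference called and 3 had the less negative change. Of 20 S phase genes, of which none was called in SW1990, 19 had a smaller value there than in CFPAC-1. The genes called in SW1990 were chosen by the SW1990 change, which is 1 side of the difference, so these shares lean towards a difference and are given as a description. *EPCAM* was at 237 ± 13.4 RPKM in the negative and 227 ± 36.2 RPKM in the positive CFPAC-1 cells, and the difference between lines was 3.11 (adjusted p = 5.25e-06). *CDH1* and *MUC1* also changed more in SW1990, with differences of 2.73 (adjusted p = 7.85e-06) and 4.43 (adjusted p = 2.61e-06). For *KRT81*, *F3*, *EREG* and *IL1RN* no difference was called (-0.26, 0.19, 0.22 and -0.02, adjusted p = 0.755, 0.644, 0.353 and 0.988).

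**Figure D5:**
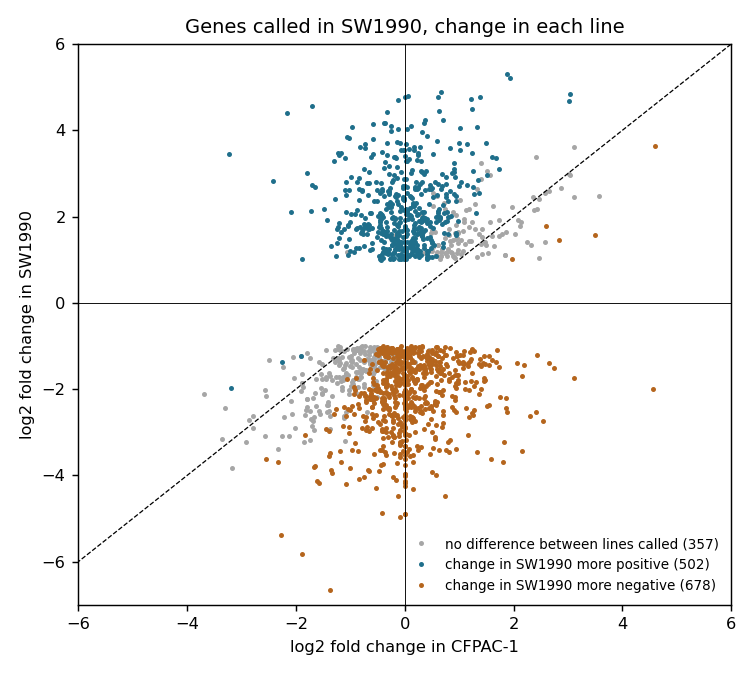
Each point is 1 of the 1537 genes called in SW1990 that were tested in all 12 samples, with its log2 fold change, positive over negative cells, in CFPAC-1 on the x axis and in SW1990 on the y axis, and the dashed line marks equal change. Colours give the test of the difference, which was called more positive in SW1990 for 502 genes (blue), more negative for 678 (brown) and not called for 357 (grey), and the band without points between log2 values of -1 and 1 on the y axis comes from the threshold.

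The largest differences included genes that fell in SW1990 and had little expression or the opposite change in CFPAC-1, and the reverse. *CXCL6* was at 4.77 ± 1.53 RPKM in the negative and 17.4 ± 6.92 RPKM in the positive CFPAC-1 cells (difference -5.51, standard error 0.45, adjusted p = 1.02e-05). *CXCL1* was at 9.86 ± 1.31 RPKM in the negative and 55.0 ± 21.0 RPKM in the positive CFPAC-1 cells, so that both chemokines were higher in positive cells of CFPAC-1 and lower in those of SW1990. For *ECSCR*, *ESM1*, *APOA1*, the apolipoprotein of HDL, and *ID3*, the differences were -5.29, -4.90, -5.23 and -5.22, and both CFPAC-1 populations had a mean of at most 1.03 RPKM of each, the highest being that of *ID3* in positive cells. In SW1990 *APOA1* was at 21.6, 19.4 and 18.4 RPKM in the negative and 0.460, 0.920 and 1.13 RPKM in the positive samples. In the other direction, *FOXJ1*, the factor of motile cilia, was at 0.958, 0.537 and 1.5 RPKM in the negative and 4.06, 19.3 and 17.0 RPKM in the positive samples and at 12.9 ± 3.64 RPKM in the negative and 1.31 ± 0.504 RPKM in the positive CFPAC-1 cells (difference 6.67, standard error 0.77, adjusted p = 9.63e-05). Positive replicate 1 stood well below the others for *FOXJ1*, and its SW1990 call was lost without positive replicate 2 or 3 or negative replicate 1 or 2 (adjusted p = 0.0146, 0.0208, 0.0145 and 0.0187). *GABRP* fell from 807 ± 233 to 180.2 ± 62.4 RPKM in CFPAC-1 while it rose in SW1990 (difference 6.56, standard error 0.71, adjusted p = 6.36e-05). *HSD11B1*, which regenerates cortisol, and *ADH1C*, an alcohol dehydrogenase, were among the 6 largest differences of this sign, with *WFDC2* and *MUC20*. In SW1990 *HSD11B1* was at 0.715, 0.411 and 0.578 RPKM in the negative and 7.21, 9.52 and 11.2 RPKM in the positive samples, and *ADH1C* at 1.92, 1.57 and 2.26 RPKM in the negative and 17.7, 15.2 and 15.4 RPKM in the positive samples.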

How the data were processed

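GCTM-5 positive and negative SW1990 cells were sorted in triplicate, and polyadenylated RNA was sequenced on an Illumina instrument. The deposited RPKM values were computed by the authors with QuasR on the hg19 genome, and the annotation, the use of strand and the handling of reads with several matches are not given in the sources used here. The labels and the study's methods name different library kits, secondary antibodies and media. Whole reads were recovered from the RPKM, and all 19654 genes above 0 came out whole within 0.01 read.

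Genes were tested with limma 3.58.1 in R 4.3.3 on log2(RPKM + 0.1), after a filter at a mean of 0.1 RPKM, with a mean-variance trend and group means of the 6 samples. The difference between lines used 4 group means over all 12 samples. Both used Benjamini-Hochberg adjustment over all genes tested. On simulated data with 4-fold changes in 100 genes each way, 100% of higher and 99% of lower genes were called for SW1990 among 15792 genes, with 6 of 15592 unchanged genes called. For the difference, with 16242 genes, the shares were 96% and 90%, with 7 of 16042 unchanged genes called. In both simulations the changed genes were drawn only from better expressed genes, and all genes were given the same dispersion. These shares therefore do not cover genes near the filter or genes with a wider spread.

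Genes were named as the 12 largest rises and falls at 5 RPKM or more, up to 4 called and the 2 most abundant members of each list, and the 6 largest differences between lines each way. Genes outside this rule were chosen after their values were seen, among them those described as chosen so, the epithelial and vascular genes not called, and members of lists shown for their role. The members and lists were chosen with earlier results of these data known. Alternatives were another pseudocount, filter, threshold, normalisation, variance model, replicate block, voom on the recovered reads, and leaving out each sample. *MUC5AC* and *MUC3A* were not analysed here, and some members of the lists are not reported here. Sequences were those of RefSeq. Counts and plots were made in Python 3.11.15, using matplotlib 3.10.9 for the plots, numba 0.67.0 for the recovered reads and numpy 2.4.6 and pandas 2.3.3 for tables.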

Additional observations from a re-analysis of the deposited data

Results flagged for a closer look

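The change between positive and negative cells differed between SW1990 and CFPAC-1 for 4374 genes, by limma's test of the difference itself with Benjamini-Hochberg adjustment. Values below are differences of log2 fold changes, SW1990 minus CFPAC-1. Of the named genes that fell in SW1990, *CXCL6* had a difference of -5.51, *ECSCR* of -5.29, *APOA1* of -5.23, *ID3* of -5.22, *CXCL1* of -4.94 and *ESM1* of -4.90. Of those that rose in SW1990, *FOXJ1* had a difference of 6.67, *GABRP* of 6.56, *WFDC2* of 5.03, *HSD11B1* of 4.85, *MUC20* of 4.82 and *ADH1C* of 4.82. These 12 genes were picked as the most extreme differences, so their sizes are a description. No group held more than 3 samples, so no search for single outlying samples was made.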

How the results depend on the processing

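Of the 624 genes called higher and 919 called lower, the counts lay between 446 and 609 and between 629 and 849 when 1 sample was left out. Without a fold threshold they were 1046 and 1501, and with a pseudocount of 1 the lower count was 565. The other alternatives kept both counts within 1.5 times, and the count of differences between lines stayed within that range in the alternatives run. Whether samples of the same replicate number came from the same sort is not stated. Deviations of same-numbered samples correlated at 0.318, 0.0612 and 0.22 over 13015 genes. Negative replicates 2 and 3 correlated best with another number (0.0754 and 0.284), so these values do not settle a pairing. The main fit used no pairing, and a fit with the replicate number as a block called 596 and 893. Of 160 named genes called, none changed direction and 142 kept their call in all 20 alternatives. The calls of *ZEB2*, *TIE1* and *HEYL* were lost with a pseudocount of 1 only, and that of *C1S* with a pseudocount of 0.01 only. A pseudocount of 1 also lost *CD14*, *CLDN2*, *COL8A1*, *KRT86*, *LMO7*, *NOVA1*, *RBM24* and *WNT7A*. A pseudocount of 0.01 also lost *CLDN2*, *MIR429* and *WNT7A*. Without the variance trend *BST2*, *FOXJ1*, *KRT86*, *LMO7* and *MIR429* were not called, nor without the filter *KRT86*, *LMO7* and *MIR429*. *LMO7*, *MIR429* and *WNT7A* were lost with the replicate block, *COL8A1* with all 12 samples in the fit and *MIR429* by voom. Of genes not called, some log2 fold changes crossed 0 when 1 sample was left out, with ranges of 0 to 0.51 for *C3*, -0.56 to 0.03 for *SNAI2*, -0.10 to 0.02 for *FSCN1*, -0.03 to 0.03 for *HOXB7*, -0.09 to 0.08 for *ITGA3* and -0.09 to 0.07 for *TOP2A*. After centring *FSCN1* was at 0 and *TOP2A* at 0.03, as it was by voom, and with quantile normalisation *HOXB7* was at -0.03 and *ITGA3* at -0.02. The cause was not tested. A ratio of means could not be given for *TFF1*, which had no reads in negative cells. List counts with a span of 6 or more were those of HOX genes (0 to 7 lower), interferon-stimulated genes (0 to 6 lower), laminins and integrins (4 to 10 lower), NRF2 targets (5 to 11 lower) and serine proteases (10 to 16 higher). Depth limits genes of few reads, such as the microRNA entries.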
